A study of Macaca radiata with 6 samples.

Results

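The 9 genes described here are MRC1, MARCO, CD14, VSIG4, STAB1, CLEC7A, MS4A6A, F13A1 and PLXDC2, a group of macrophage scavenger and surface receptors. Their members are all probe sets whose only symbol in the platform annotation is one of these names, which gave 20 of 52865 probe sets, for 9 of 14133 named genes. The genes were chosen by their signal difference between the same PGF2alpha and vehicle arrays, so that difference is given as a description with no test. They were measured on 6 Affymetrix Rhesus arrays of corpora lutea, the progesterone-making glands left in the ovary by ovulation, from female bonnet monkeys (Macaca radiata). The PGF2alpha group (3 arrays, replicates 1 to 3) received 3 intramuscular injections of prostaglandin F2-alpha, a hormone that makes the corpus luteum regress, at 59 µg/kg body weight on day 10 of the luteal phase. The vehicle group (3 arrays, replicates 4 to 6) received phosphate-buffered saline on the same day. The tissue was taken 24 h later in both groups, and the labels give 3 monkeys per group without saying which array came from which animal. The question is how macrophage receptor transcripts of the primate corpus luteum stand 24 h after PGF2alpha.

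Macrophages recognise microbes, modified lipoproteins and dying cells through surface receptors that bind sugars, polyanions or complement fragments and carry the bound material to lysosomes. In a regressing corpus luteum they are known to enter the tissue and to clear dying luteal cells. The genes here fall into endocytic and scavenger receptors (MRC1, MARCO, STAB1), pattern and complement receptors (CD14, CLEC7A, VSIG4) and other products of tissue macrophages (F13A1, MS4A6A, PLXDC2). F13A1 encodes an enzyme and not a receptor, so the group is wider than its name. In bulk tissue more cells of a type and more RNA per cell cannot be told apart.

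Values are deposited MAS5 signals, in linear intensity units, with the mean ± SD over the 3 arrays of a group. Differences are PGF2alpha minus vehicle on the log2(signal + 40) scale, which understates the change of dim genes. Signals of different probe sets are not comparable as levels. A gene is represented by the brightest, by mean over all 6 arrays, of its probe sets at or above the array median on at least 3 arrays. The arrays had been hybridised in 2 runs by the times in the scanner files, with PGF2alpha replicates 1 and 3 and vehicle replicates 5 and 6 in run 1, and PGF2alpha replicate 2 and vehicle replicate 4 in run 2.

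All 9 genes had a higher mean signal after PGF2alpha at their brightest probe set, with log2 differences from 0.49 for STAB1 to 2.95 for MRC1 and a median of 1.34. The median was -0.02 over the 9980 genes tested. In 6 of the 9 genes every PGF2alpha array lay above every vehicle array, where 15.8% of all genes tested did so. The genes were picked for this contrast, so nothing is read from that count. STAB1, CLEC7A and MS4A6A were the genes whose groups overlapped. Median signals per array lay between 115 and 134, as the scale against which the following values can be read.

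**Figure D1:**
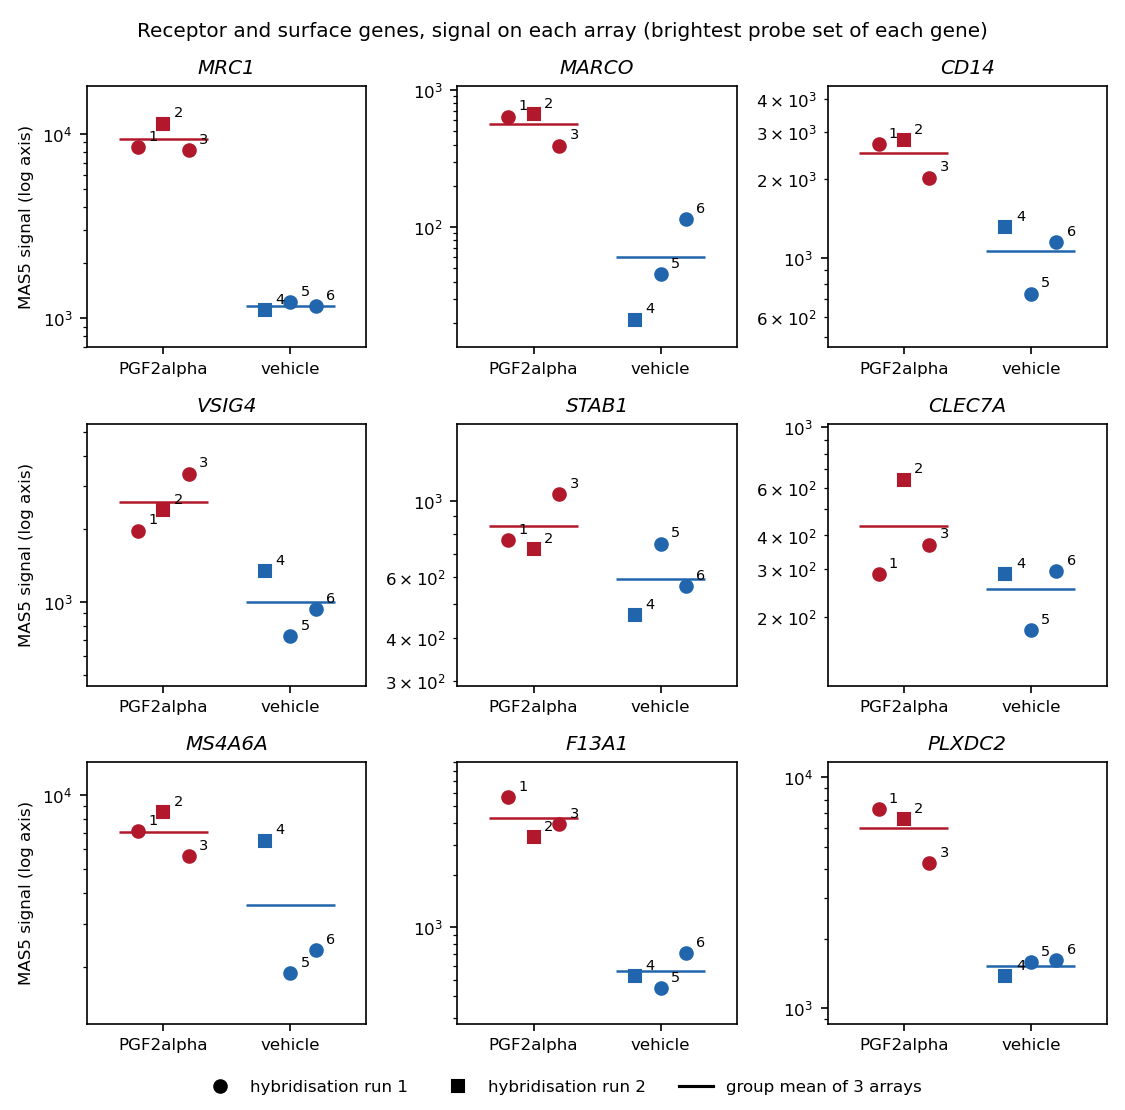
MAS5 signal (log axis, scaled separately in each panel) of the brightest probe set of each of the 9 genes on every array, PGF2alpha left and vehicle right. Numbers are replicates, squares mark run 2 and lines are means of 3 arrays. MRC1, MARCO, CD14, VSIG4, F13A1 and PLXDC2 show no overlap between groups, and vehicle replicate 4 lies among the PGF2alpha arrays for MS4A6A.

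MRC1 encodes the macrophage mannose receptor, a C-type lectin that takes up mannosylated glycoproteins and collagen fragments. Its brightest probe set (MmuSTS.1523.1.S1_at) read 8510, 11403 and 8176 on PGF2alpha replicates 1, 2 and 3, against 1109, 1228 and 1166 on vehicle replicates 4, 5 and 6. The vehicle arrays were nearly equal, with a coefficient of variation of 5.09%, and the lowest PGF2alpha array stood 6.66 times above the highest vehicle array. The means were 9363 ± 1775 after PGF2alpha and 1167 ± 59.5 after vehicle (SD, n = 3 each), a log2 difference of 2.95 (SE 0.16 from the limma fit). It ranked 18th from the largest increase among 9980 genes. Within run 1 the difference was 2.76 and within run 2 it was 3.32.

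The other MRC1 probe sets did not read alike. The dimmest probe set read 878, 1244 and 608 on the PGF2alpha arrays, against 204, 157 and 186 on the vehicle arrays. Its groups were also apart, with a log2 difference of 2.05. The remaining probe set (MmuSTS.1149.1.S1_at) read 1504, 1039 and 1453 after PGF2alpha and 645, 1237 and 1026 after vehicle. There the groups overlapped and the log2 difference was 0.47. The mean over the 3 probe sets gave 1.82, so the size of the MRC1 difference depends on which probe set is taken.

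MARCO encodes a class A scavenger receptor with a collagenous stalk that binds bacteria and particles. Its only probe set read 640, 670 and 394 on the PGF2alpha arrays, against 21.1, 45.3 and 115 on the vehicle arrays. All 3 vehicle signals lay below the median of their array, and the probe set passed the brightness filter through the PGF2alpha arrays alone. The means were 568 ± 152 after PGF2alpha and 60.4 ± 48.5 after vehicle (SD, n = 3 each), a log2 difference of 2.67 (SE 0.36). The vehicle spread was wide, with a coefficient of variation of 80.4%. The difference was 3.23 with a pseudocount of 10 and 1.72 with one of 160, so its size is uncertain. It was 2.24 within run 1 and 3.54 within run 2.

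STAB1 encodes stabilin-1, an endocytic receptor of tissue macrophages and sinusoidal endothelium that clears modified lipoproteins and matrix proteins. Signals were 766, 722 and 1042 on the PGF2alpha arrays and 465, 749 and 565 on the vehicle arrays. Vehicle replicate 5 lay above PGF2alpha replicate 2, so the groups overlapped. The log2 difference was 0.49 (SE 0.21), the smallest of the 9 genes by their brightest probe sets. A second, dimmer probe set, which stayed below the brightness filter, read 188, 89.9 and 112 after PGF2alpha and 104, 187 and 78.9 after vehicle, a log2 difference of 0.07.

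CD14 is the membrane-anchored co-receptor that hands bacterial lipopolysaccharide to TLR4. Its probe set read 2704, 2804 and 2018 on the PGF2alpha arrays, against 1309, 733 and 1148 on the vehicle arrays. The lowest PGF2alpha array stood 1.54 times above the highest vehicle array. The means were 2509 ± 428 after PGF2alpha and 1063 ± 298 after vehicle (SD, n = 3 each), a log2 difference of 1.23 (SE 0.23). The difference was 1.31 within run 1 and 1.08 within run 2.

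VSIG4 encodes the complement receptor of the immunoglobulin superfamily, which binds C3 fragments on resident tissue macrophages. It read 1967, 2399 and 3381 on PGF2alpha replicates 1, 2 and 3, against 1342, 725 and 933 on vehicle replicates 4, 5 and 6. The groups were apart by a factor of 1.47 between the nearest arrays. The means were 2582 ± 725 after PGF2alpha and 1000 ± 314 after vehicle (SD, n = 3 each), a log2 difference of 1.34 (SE 0.26). It was 1.603 within run 1 and 0.82 within run 2.

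CLEC7A encodes dectin-1, a lectin for fungal beta-glucan that signals through the kinase SYK. The brightest probe set read 288, 642 and 370 after PGF2alpha and 288, 180 and 295 after vehicle, so PGF2alpha replicate 1 lay level with vehicle replicate 4 and below vehicle replicate 6. The log2 difference was 0.64 (SE 0.29), and 0.34 without PGF2alpha replicate 2, the highest array. Another probe set, of a kind that can cross-hybridise, read 387, 744 and 323 on the PGF2alpha arrays and 216, 152 and 133 on the vehicle arrays. Its groups were apart, with a log2 difference of 1.28 (SE 0.30). The third gave 343, 600 and 224 after PGF2alpha and 218, 103 and 247 after vehicle, with overlap and a log2 difference of 0.87. All 3 CLEC7A probe sets were highest on PGF2alpha replicate 2.

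F13A1 encodes the A subunit of coagulation factor XIII, a transglutaminase of macrophages and platelets that cross-links fibrin. Its brightest probe set (MmuSTS.4740.1.S1_at) read 5629, 3310 and 3933 on the PGF2alpha arrays, against 521, 446 and 709 on the vehicle arrays. The lowest PGF2alpha array stood 4.67 times above the highest vehicle array. The means were 4291 ± 1200 after PGF2alpha and 559 ± 135 after vehicle (SD, n = 3 each), a log2 difference of 2.84 (SE 0.23), ranked 19th among 9980 genes. Within runs 1 and 2 the difference was 2.98 and 2.58.

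The second F13A1 probe set (MmuSTS.3236.1.S1_at) was the only one of the 20 with a lower mean after PGF2alpha. It read 955, 1272 and 1173 on the PGF2alpha arrays, against 1315, 1408 and 1493 on the vehicle arrays, a log2 difference of -0.31 (SE 0.16). All 3 PGF2alpha signals lay below all 3 vehicle signals, the opposite order to the first probe set. On the vehicle arrays this second probe set was the brighter one, with a mean of 1405 against 559. The first represents F13A1 by its mean over all 6 arrays, so its high PGF2alpha signals decided that choice and its rank. The mean of both F13A1 probe sets gave a log2 difference of 1.27.

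MS4A6A encodes a four-pass membrane protein of monocytes and macrophages. Its brightest probe set read 7106, 8491 and 5627 on the PGF2alpha arrays and 6521, 1883 and 2347 on vehicle replicates 4, 5 and 6. Vehicle replicate 4 lay above PGF2alpha replicate 3, while the other vehicle arrays lay well below all PGF2alpha arrays. The means were 7075 ± 1432 after PGF2alpha and 3584 ± 2554 after vehicle (SD, n = 3 each), a log2 difference of 1.17 (SE 0.40). It was 1.71 without vehicle replicate 4, 1.57 within run 1 and 0.38 within run 2, the run that holds that array.

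Of the 3 other MS4A6A probe sets, 2 repeated this picture. The second brightest, which can cross-hybridise, read 6609, 9020 and 5119 after PGF2alpha and 5888, 1533 and 2066 after vehicle. A dim one read 128, 243 and 136 after PGF2alpha and 161, 49.9 and 44.5 after vehicle, again with vehicle replicate 4 the highest vehicle array. In the fourth, vehicle replicate 4 was instead the lowest array, at 9.20, but all 6 of its signals lay below their array's median.

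PLXDC2 encodes a plexin-domain membrane protein that has been described as a receptor for the serpin PEDF. Its brightest probe set read 7262, 6583 and 4247 on the PGF2alpha arrays, against 1372, 1579 and 1613 on the vehicle arrays. The groups were apart by a factor of 2.63 between the nearest arrays, and the vehicle arrays varied by 8.57%. The means were 6031 ± 1582 after PGF2alpha and 1522 ± 130 after vehicle (SD, n = 3 each), a log2 difference of 1.93 (SE 0.20). The other PLXDC2 probe sets gave 1.88 and 1.92, so all 3 read alike.

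Over all 20 probe sets, 19 had a positive and 1 a negative log2 difference, and 18 passed the brightness filter. The groups were apart with PGF2alpha higher in 11 of them, where 9.21% of all probe sets other than controls were. Among the 18 tested probe sets 10 were apart in this way, where 13% of all tested probe sets were. By limma 5.01% of all tested probe sets were called, 3.02% higher and 1.99% lower. The contrast chose the genes, so nothing is read from these counts. Probe sets of 1 gene differed in size for MRC1 and in sign for F13A1, while those of PLXDC2 lay close together. The brightest probe set of all 9 genes had a positive difference within both runs.

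**Figure D2:**
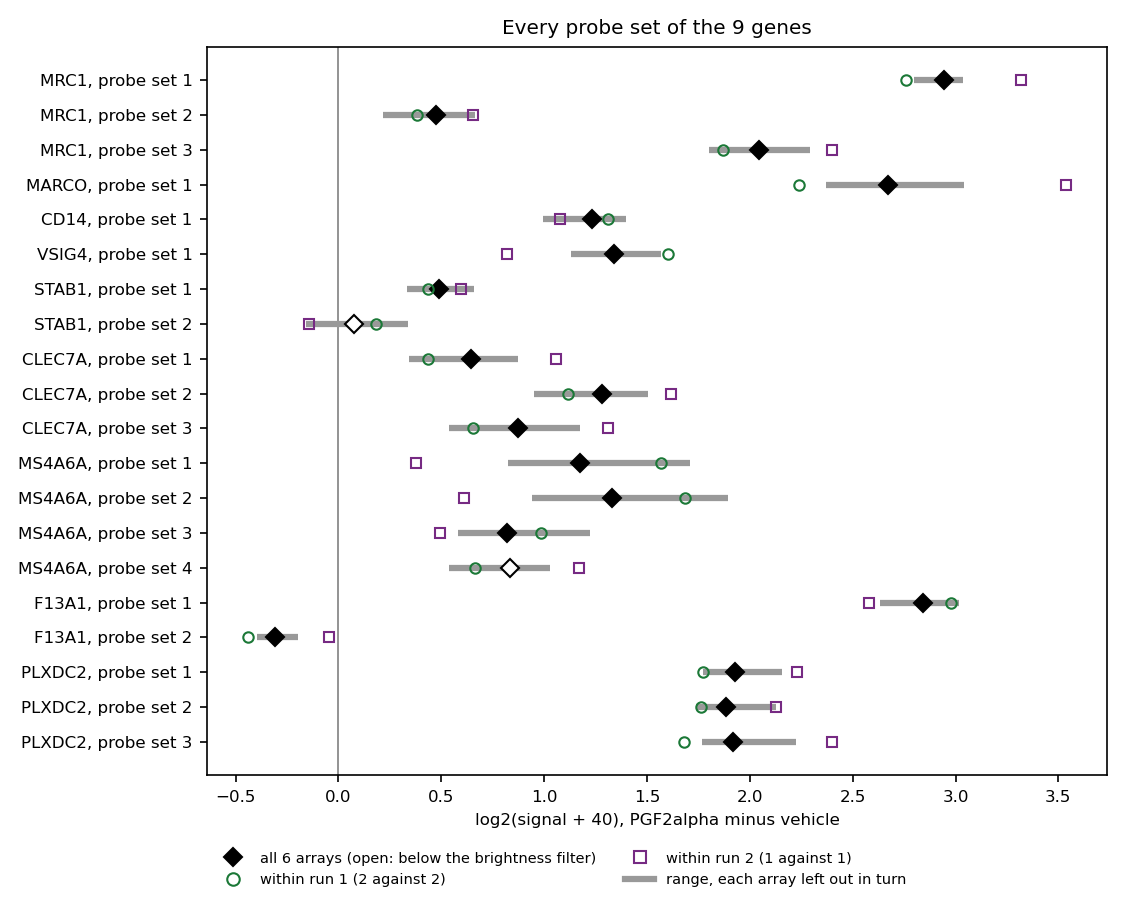
Log2(signal + 40), PGF2alpha minus vehicle, of all 20 probe sets, listed within each gene with the one that represents it first. Diamonds use all 6 arrays (open where the probe set lay below the brightness filter), circles and squares are within runs 1 and 2, and bars span the values with each array left out in turn. The second F13A1 probe set lies at -0.31 and the brightest at 2.84.

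The order of the arrays differed between genes. PGF2alpha replicate 3 was the lowest PGF2alpha array in 5 of 9 genes (MRC1, MARCO, CD14, MS4A6A and PLXDC2), yet it was the highest in VSIG4 and STAB1. PGF2alpha replicate 2 was the highest in MRC1, MARCO, CD14, CLEC7A and MS4A6A. Among vehicle arrays, replicate 4 was the highest in CD14, VSIG4 and MS4A6A and the lowest in MRC1, MARCO, STAB1 and PLXDC2. Vehicle replicate 5 was the lowest in the other 5 genes (CD14, VSIG4, CLEC7A, MS4A6A and F13A1). That array also had the lowest macrophage lineage sum (25968) and the highest actin ratio of 3-prime over 5-prime signal (2.25, against 1.54 and 1.49 on vehicle replicates 4 and 6), whose part in these values was not tested. Leaving out vehicle replicate 4 moved the median difference of the 9 genes to 1.71, and leaving out vehicle replicate 5 moved it to 1.14.

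Macrophage lineage markers other than these genes were also higher as a group. Of 21 tested markers, 19 had a positive log2 difference, 6 rose and 0 fell at an adjusted p under 0.05 (limma, 13 higher and 0 lower at an unadjusted p under 0.05), with a median of 0.86. Over all 9980 genes tested 3.81% rose and 2.32% fell. ITGAM at -0.12 (limma adjusted p = 0.86) and SIGLEC1 at -0.05 (adjusted p = 0.918), named after their values were seen, were not positive. CYBB, the catalytic subunit of the phagocyte oxidase, rose by 2.005 (SE 0.30, limma adjusted p = 0.0106). It read 2083, 2837 and 1522 after PGF2alpha and 593, 299 and 647 after vehicle. The tetraspanin CD53 rose by 1.498 (limma adjusted p = 0.0103), the adaptor TYROBP by 1.39 (adjusted p = 0.0276) and the lysosomal glycoprotein CD68 by 1.05 (adjusted p = 0.0319), though the other CD68 probe set read -0.16 (adjusted p = 0.801).

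Complement C1q, made by tissue macrophages, did not pass the test. Its genes are named after their values were seen. C1QA read 2093, 2635 and 3763 on the PGF2alpha arrays and 3001, 1680 and 2071 on the vehicle arrays, with a log2 difference of 0.32 (limma adjusted p = 0.524). Like VSIG4 and STAB1, it was highest on PGF2alpha replicate 3. C1QB and C1QC had the same highest PGF2alpha array and also overlapped, at 0.55 and 0.41.

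On each array the mean log2 signal of the 21 lineage markers was subtracted from each of the 9 genes, which describes how far a gene stood from that mean. That mean itself was 0.88 higher after PGF2alpha. Relative to it MRC1 was 2.06 higher, F13A1 1.96, MARCO 1.79, PLXDC2 1.04, VSIG4 0.46 and CD14 0.35, each with no overlap between groups. MS4A6A at 0.29, CLEC7A at -0.24 and STAB1 at -0.40 overlapped. The 9 genes were picked for this contrast, so nothing is read from where they stand against the marker mean. The distances rest on 1 probe set per gene, and that of MARCO on vehicle signals below the array median. With the mean of the tested probe sets, MRC1 stood at 0.94 and PLXDC2 at 1.02, still apart, while F13A1 at 0.38 overlapped and CLEC7A at 0.05 changed sign.

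The pathways around these receptors were described from 13 lists that leave the 9 genes out. Of their 213 genes 167 were named on the array and 125 tested, of which 30 rose (24%) and 0 fell by limma at an adjusted p under 0.05, with 54 higher and 6 lower at an unadjusted p under 0.05. Across all genes tested 3.81% rose. The median log2 difference was 0.41, and 98 of 125 were positive against 4800 of 9980 genes overall. The 30 calls became 8 and 6 without PGF2alpha replicates 1 and 2, 33 without PGF2alpha replicate 3, and 20, 12 and 14 without vehicle replicates 4, 5 and 6. OLR1, CCR2 and CCL17, called higher, had entered the test through the PGF2alpha arrays alone, and CCR2 and CCL17 were also called with no filter. Among the 118 genes at or above the array median on at least 1 array of each group 27 rose and 0 fell. Of these, CCL18, CCL2, IL1RN, SIRPA and TLR4 were called under all 18 alternatives.

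The partners of CD14 were mostly not called. Of 12 tested genes of the lipopolysaccharide receptor pathway 2 rose and 0 fell, with a median of 0.22 (3 higher and 1 lower at an unadjusted p under 0.05, limma). TLR4, the signalling receptor, read 587, 714 and 569 on the PGF2alpha arrays, against 153, 165 and 239 on the vehicle arrays. Its groups were apart, and it rose by 1.57 (SE 0.20, limma adjusted p = 0.00652). The other TLR4 probe set stood at 1.17 and was not called (adjusted p = 0.0951). LY86, the partner of the TLR homologue CD180, rose by 0.96 (adjusted p = 0.0255). LY96, the lipopolysaccharide-binding partner of TLR4, was chosen after its values were seen and read 137, 122 and 143 after PGF2alpha and 146, 88.5 and 163 after vehicle.

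In the list for CLEC7A signalling and its partners 2 of 9 tested genes rose and 0 fell, with a median of 0.24 (2 higher and 0 lower at an unadjusted p under 0.05, limma). SYK, the kinase that dectin-1 engages, read 267, 344 and 239 after PGF2alpha and 71.2, 79.1 and 138 after vehicle. It rose by 1.27 (SE 0.27, limma adjusted p = 0.0313), with only 1 vehicle array at or above its median. The protein kinase C isoform PRKCD rose by 0.91 (adjusted p = 0.0421). Both calls were lost with no filter, and they held in 12 (SYK) and 10 (PRKCD) of 17 alternatives. Other lectin receptors gave 2 of 11 higher and 0 lower, with a median of 0.51 (5 higher and 1 lower at an unadjusted p under 0.05, limma). These were the galactoside-binding galectin LGALS3 (1.40, limma adjusted p = 0.0324) and CLEC1A (0.89, adjusted p = 0.0295), whose other probe set read 0.01.

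Of 10 other scavenger receptors tested 3 rose and 0 fell, with a median of 0.26 (4 higher and 1 lower at an unadjusted p under 0.05, limma). The calls were CD68, OLR1, the endothelial and macrophage receptor for oxidised low-density lipoprotein (1.596, limma adjusted p = 0.0481), and SCARA3 (0.82, adjusted p = 0.0326), whose other probe set read 0.17 (adjusted p = 0.765). OLR1 passed the brightness filter through the PGF2alpha arrays alone and was called in only 7 of 17 alternatives, not with no filter. Among the 8 genes at or above the array median on at least 1 array of each group 2 rose. MSR1, another class A scavenger receptor, was chosen after its values were seen. It read 309, 207 and 286 on the PGF2alpha arrays and 232, 152 and 254 on the vehicle arrays, with overlap and a log2 difference of 0.29.

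Complement genes gave 3 of 10 higher and 0 lower, with a median of 0.46 (3 higher and 0 lower at an unadjusted p under 0.05, limma). The anaphylatoxin receptor C5AR1 read 2282, 2652 and 1438 after PGF2alpha, against 832, 563 and 795 after vehicle, and rose by 1.47 (SE 0.24, adjusted p = 0.0147). ITGB2, the common beta chain of the leukocyte integrins, rose by 1.52 (limma adjusted p = 0.0491), a call that held in only 6 of 18 alternatives. Its other tested probe sets were not called, at 0.84 (adjusted p = 0.155) and 1.41 (adjusted p = 0.119). CD55, which shields cells from complement, rose by 0.93 (limma adjusted p = 0.0279).

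In the list for uptake of dying cells 4 of 16 tested genes rose and 0 fell, with a median of 0.40 (7 higher and 2 lower at an unadjusted p under 0.05, limma). SIRPA, the inhibitory receptor for CD47, read 1063, 1213 and 844 on the PGF2alpha arrays, against 302, 306 and 359 on the vehicle arrays, and rose by 1.57 (SE 0.18, limma adjusted p = 0.0054). The phosphatidylserine-sensing kinases TYRO3 and MERTK rose by 0.86 (adjusted p = 0.0264) and 0.67 (adjusted p = 0.0342). The other MERTK probe set stood at 0.40 (adjusted p = 0.248). The adhesive glycoprotein THBS1, which bridges dying cells to phagocytes, rose by 2.16 (adjusted p = 0.0146). Of its 3 other tested probe sets 2 were also called, and the third stood at 0.67 (adjusted p = 0.147).

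Lists of relatives and partners of MS4A6A, F13A1 and PLXDC2 gave no call at the probe sets that represent their genes. Over all 9980 genes tested 3.81% rose and 2.32% fell, so with so few genes nothing is read from these counts. Of 5 tested genes of the MS4A and TMEM176 families 0 were called, with a median of -0.02 (1 higher and 1 lower at an unadjusted p under 0.05, limma). MS4A4A read 1116, 1373 and 2464 after PGF2alpha and 850, 308 and 589 after vehicle, a log2 difference of 1.46 (limma adjusted p = 0.0549), and 1 of its 2 further probe sets passed the test at 1.25 (adjusted p = 0.0264). MS4A8 read -1.02 (adjusted p = 0.179). Of 3 tested transglutaminases and substrates 0 were called (1 higher and 0 lower at an unadjusted p under 0.05, limma). The substrate fibronectin (FN1) stood at 0.65 (limma adjusted p = 0.0627), and tissue transglutaminase TGM2 at 0.40 (adjusted p = 0.545). A dimmer TGM2 probe set passed the test at 2.17 (adjusted p = 0.00963). Of 5 genes related to PLXDC2 0 were called (1 higher and 0 lower at an unadjusted p under 0.05, limma), with PLXNB2 at 0.58 (adjusted p = 0.0626) and SERPINF1, which encodes PEDF, at 0.41 (adjusted p = 0.385). The paralogue PLXDC1, chosen after its values were seen, read 1734, 1257 and 1241 after PGF2alpha and 1318, 1506 and 1333 after vehicle.

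MRC1 and F13A1 are textbook products of macrophages activated by interleukin-4 or interleukin-13. Of 19 tested genes of alternative activation 4 rose and 0 fell, with a median of 0.40 (7 higher and 0 lower at an unadjusted p under 0.05, limma). Of the 19, 15 were positive, and PPARG (-0.31), IL10 (-0.30), LYVE1 (-0.12) and FOLR2 (-0.10) were negative, none of them called. The 4 called were the chemokines CCL17 and CCL18, the antagonist IL1RN and the interleukin-10 receptor chain IL10RA. CCL18 read 6998, 12637 and 8135 on the PGF2alpha arrays, against 320, 383 and 433 on the vehicle arrays, a rise of 4.44 (SE 0.22, limma adjusted p = 0.000195). CCL17 stood at 5.33 (limma adjusted p = 0.00278), but it too passed the brightness filter through the PGF2alpha arrays alone, and 3 of 18 genes rose without it. IL1RN rose by 3.11 (adjusted p = 0.00736) and IL10RA by 1.17 (adjusted p = 0.0409). The receptor IL4R and the factor STAT6, both chosen after their values were seen, stood at 0.13 (limma adjusted p = 0.761) and 0.17 (adjusted p = 0.568).

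Genes of macrophage growth and recruitment gave 4 of 7 higher and 0 lower, with a median of 0.85 (5 higher and 0 lower at an unadjusted p under 0.05, limma). CCR2, the monocyte receptor for CCL2, read 135, 355 and 135 after PGF2alpha and 17.1, 10.6 and 8.84 after vehicle. It stood at 2.14 (limma adjusted p = 0.0249), but it passed the brightness filter through the PGF2alpha arrays alone, and 3 of 6 genes rose without it. Its ligand CCL2 rose by 2.32 (adjusted p = 0.00899), the growth factor receptor CSF1R by 0.85 (adjusted p = 0.0432) and the shared cytokine receptor chain CSF2RB by 0.82 (adjusted p = 0.0289).

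Transcription factors of macrophages gave 3 of 12 higher and 0 lower, with a median of 0.44 (6 higher and 0 lower at an unadjusted p under 0.05, limma). CEBPD rose by 0.93 (limma adjusted p = 0.0197), the MITF relative TFEC by 1.28 (adjusted p = 0.0409) and IRF8 by 1.11 (adjusted p = 0.04). Of the 2 other IRF8 probe sets, 1 read the other way at -1.55 (adjusted p = 0.0754).

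Over the 6 arrays, the genes whose log2 signals correlated best with the mean standardised profile of the 9 genes were PPP1R13L (Pearson r = 0.997), GMFG (0.997), RAN (0.996), VAMP5 (0.994), PKM (0.994), EIF3B (0.991), DOCK2 (0.990) and S100A8 (0.990). The 6 points share their group and scaling, so these values describe a similar pattern and carry no test. GMFG, an actin regulator of blood cells, read 2510, 2568 and 2499 after PGF2alpha and 1451, 1342 and 1475 after vehicle. DOCK2, a leukocyte guanine nucleotide exchange factor, read 352, 420 and 375 after PGF2alpha and 232, 182 and 225 after vehicle. S100A8 is a calprotectin subunit of neutrophils and monocytes.

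Markers of other cell types moved with the groups to unequal degrees, and their part in the differences above was not tested. Summed signals of the 21 macrophage lineage markers ran from 56826 to 99071 on the PGF2alpha arrays and from 25968 to 44655 on the vehicle arrays. LYZ, named after its values were seen, was a large part of these sums and was not called (limma adjusted p = 0.104). It read 24759, 52127 and 28125 after PGF2alpha and 21139, 12460 and 19946 after vehicle. The 10 named neutrophil markers summed to 12576 to 30999 after PGF2alpha and 3709 to 6914 after vehicle. LCN2, named after its values were seen, alone read 3056, 6486 and 2954 on the vehicle arrays. All 4 that were tested rose, with S100A9 at 5.66 (limma adjusted p = 0.00165) and S100A8 at 5.00 (adjusted p = 0.00142), while S100A12, MPO, ELANE, MMP8 and FPR1 lay below the array median on every array. On the vehicle arrays S100A9 read 127, 30.1 and 62.3 and S100A8 117, 41.2 and 136. Those signals lie near or below the array median, so the sizes of both rises are uncertain. Luteal markers summed to 82373 to 146197 after PGF2alpha and 178311 to 200475 after vehicle, and 2 of 9 fell by limma (0 higher and 8 lower at an unadjusted p under 0.05), with 0 of 9 positive and a median of -0.93. The steroid hydroxylase CYP17A1 fell by 1.46 (limma adjusted p = 0.0299). STAR, the cholesterol carrier of steroid synthesis, fell by 0.67 (adjusted p = 0.0497), a call that held in only 6 of 18 alternatives. HSD17B1 and CYP19A1, named after their values were seen, stood at -1.62 (limma adjusted p = 0.0533) and -1.51 (adjusted p = 0.0694), while HSD3B2 stood at -1.09 (adjusted p = 0.172) and INHA at -0.40 (adjusted p = 0.171).

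STAB1 and MRC1 are also made by sinusoidal and lymphatic endothelium, and F13A1 by platelets. The 10 named lymphatic and sinusoidal markers summed to 5523 to 8424 after PGF2alpha and 7064 to 8009 after vehicle, with 0 of 6 tested called (0 higher and 1 lower at an unadjusted p under 0.05, limma). LYVE1, chosen after its values were seen, read 2889, 2801 and 5803 on the PGF2alpha arrays and 4759, 3562 and 3582 on the vehicle arrays. Within that list CCL21 stood at -0.62 (limma adjusted p = 0.128) and PDPN at 0.28 (adjusted p = 0.391). The 14 endothelial markers summed to 29307 to 39850 after PGF2alpha and 30275 to 33748 after vehicle, and only CLDN5 was called (0.90, adjusted p = 0.0266), with ENG at 0.58 (adjusted p = 0.0548). The 9 named platelet markers summed to 818 to 1422 after PGF2alpha and 1021 to 1351 after vehicle, with 0 of 5 tested called (0 higher and 0 lower at an unadjusted p under 0.05, limma). The platelet integrin chain ITGB3 stood at 0.56 (limma adjusted p = 0.369) and the tubulin TUBB1 at 0.35 (adjusted p = 0.549).

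The remaining marker lists were mixed. Lymphocyte and natural killer markers summed to 29969 to 46520 after PGF2alpha and 16585 to 20164 after vehicle, with 1 of 8 tested called, the cytolytic protein GNLY (3.01, limma adjusted p = 0.00186), whose second probe set stood at 0.47 (adjusted p = 0.232). Without GNLY the list summed to 20057, 15658 and 14413 on the PGF2alpha arrays and 18190, 16915 and 13262 on the vehicle arrays, which overlap, and the list median was -0.03 with 4 of 8 positive. The granzyme GZMA lay the other way, at -0.85 (limma adjusted p = 0.0584), with all 3 of its other tested probe sets also negative. Among 6 tested dendritic cell markers 1 was called (1 higher and 1 lower at an unadjusted p under 0.05, limma). CD83 rose by 1.41 (limma adjusted p = 0.0401, lost with the run as a block), and the Langerhans cell lectin CD207 stood at -0.91 (adjusted p = 0.202), below the array median on all 3 PGF2alpha arrays. The list summed to 15059 to 17842 after PGF2alpha and 13601 to 16367 after vehicle. CD1E, named after its values were seen, alone read 13059 to 14457 after PGF2alpha and 11927 to 14753 after vehicle. Fibroblast markers summed to 96845 to 117131 after PGF2alpha and 75931 to 100017 after vehicle, with DCN higher by 0.64 (limma adjusted p = 0.0421) and OGN lower, at -0.93 (adjusted p = 0.0483), of 9 tested. Mast cell markers summed to 1534 to 2553 after PGF2alpha and 2156 to 9855 after vehicle, the top value being vehicle replicate 4, where KIT alone read 9310. KIT stood at -1.29 (limma adjusted p = 0.221) and GATA2 at -0.14 (adjusted p = 0.779). Red cell markers summed to 1008 to 2202 after PGF2alpha and 1829 to 2135 after vehicle, with HBB at -0.91 (limma adjusted p = 0.151) and HBA at -0.23 (adjusted p = 0.755). Neither the mast cell nor the red cell list gave a call (each 0 higher and 1 lower at an unadjusted p under 0.05, limma).

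**Figure D3:**
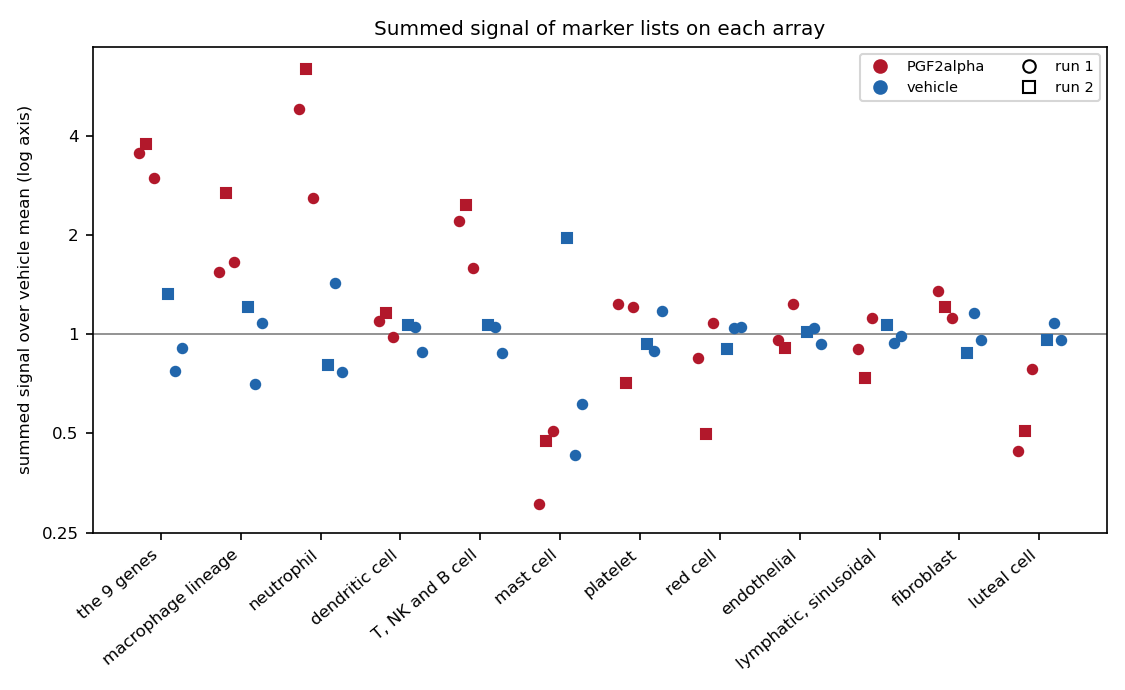
Summed signal of each marker list on every array, divided by the mean of the 3 vehicle arrays (log axis), PGF2alpha in red on the left and vehicle in blue on the right, with squares for run 2. The 9 genes summed to 29187 to 37024 after PGF2alpha and 7568 to 12948 after vehicle. Neutrophil and macrophage lineage sums lie higher and luteal cell sums lower after PGF2alpha, while endothelial, platelet and lymphatic sums overlap.

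RNA integrity was read from control transcripts as 3-prime over 5-prime signal, and the groups overlapped. This ratio averaged 1.76 ± 0.0276 after PGF2alpha and 1.76 ± 0.424 after vehicle for actin (SD, n = 3 each), and 1.56 ± 0.15 and 1.57 ± 0.16 for GAPDH (SD, n = 3 each). The exact permutation p was 1 for both, two-sided, where 3 against 3 arrays cannot go below 0.1.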

How the data were processed

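The deposited values are linear probe set intensities that the authors produced with Microarray Suite 5.0 (MAS5), per the labels. Its software build and detection calls are not given in the sources used here, so no signal could be set against background. The mean without 2% at each end was 500.0 on the 6 deposited arrays, and no further normalization was applied. The chip was designed for the rhesus macaque, and its annotation, which can be old, gives 1 symbol for 24969 of 52865 probe sets, several for 361 and none for 27535. Control probe sets (99) entered no test. The number of arrays limits the precision, and p-values measure only the spread between these samples.

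Signals were analysed as log2(signal + 40), the pseudocount being the 25th percentile of all signals rounded to a multiple of 10. The filter (array median or above on 3 or more arrays) left 26944 probe sets and 9980 genes. limma 3.58.1 in R 4.3.3 (lmFit, eBayes with trend, two-sided, no covariates) compared the groups, and p-values were Benjamini-Hochberg adjusted across the whole filtered table, with calls at 0.05. The procedure was tested on simulated data. The 9 genes and all lists were chosen with earlier results of these data known. Genes named are the 9, up to 4 called genes of smallest p per pathway list and 2 per marker list (the 2 of smallest p where fewer than 2 passed), the 8 of most similar pattern and luteal markers, and others are said to be chosen after their values were seen. Alternatives covered scaling, pseudocount, filter, variance model, run, array weights, probe set choice and each array left out, with the tested probe sets then held fixed. That last choice was made after a first run in which the filter was recomputed.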

Additional observations from a re-analysis of the deposited data

How the results depend on the processing

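No paired analysis was possible because the groups share no replicate number. All 9 genes kept the sign of their log2 difference under all 14 alternatives that apply to a description, and the run as a block could not move the differences because both groups had the same split over runs. It did move calls, with 36 pathway genes called higher and the marker calls of CD83 and STAR lost. The median of the 9 genes ran from 1.14 to 1.71 with each array left out in turn. MRC1, MARCO and F13A1 moved by more than their spread between replicates, MRC1 to 1.82 and F13A1 to 1.27 with the mean of their probe sets, and MARCO to 3.23 and 1.72 with pseudocounts of 10 and 160. The count of called probe sets was 826 with no filter, 669 with eBayes without trend, and 223 to 1903 with arrays left out in turn. Genes of the pathway lists called higher numbered 14 with eBayes without trend, 20 with no filter and 6 to 33 with arrays left out, and 0 were called lower under any alternative. Array weights raised them to 40. In the fit reported 27 remained among genes at or above the array median on at least 1 array of each group, a setting added after seeing the data. Among named calls of the lists, STAR and ITGB2 (each 6 of 18), OGN (7 of 18) and OLR1 (7 of 17) were called under fewer alternatives than not. With arrays left out, HBA ran from -0.49 to 0.17, TGM2 from -0.023 to 0.68 and GATA2 from -0.29 to 0.10, so that HBA and TGM2 changed sign without PGF2alpha replicate 2 and GATA2 without PGF2alpha replicate 3. The share of higher among called probe sets ran from 54.9% to 74.4% over the alternatives, against 60.3% in the fit reported, and was 65.5% after scaling to one median. The cause of these changes was not tested. Fewer arrays enter each fit that leaves one out, and the lack of detection calls limits what can be said of MARCO, CCR2, CCL17 and OLR1, whose vehicle signals lay below the array median.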
